A study of Mus musculus with 10 samples.

Results

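The genes described here are 10 markers of endothelial cells, the cells that line blood vessels, among the 16697 named genes of the table. They were chosen by symbol in 2 groups. The sinusoidal group holds Stab1, Stab2, Lyve1 and Clec4g, and the general endothelial group holds Pecam1, Cdh5, Kdr, Tek, Vwf and Eng. All 10 had a row with a value in each of the 10 RNA-Seq libraries of mouse liver. The libraries were wild-type normal liver (NL, n = 4), tumours induced by c-MYC together with the empty pT3 vector (c-MYC, n = 3), and tumours induced by c-MYC with pT3-FOXO1AAA (c-MYC/FOXO1AAA, n = 3). FOXO1AAA is a mutant of the transcription factor FOXO1 that stays active. Both tumour groups were made by hydrodynamic tail vein injection with sleeping beauty transposase, which delivers plasmids mainly to hepatocytes. The EF1α promoter of the plasmids is not restricted to a cell type, and whether endothelial cells carried a transgene was not tested. The strain is C57BL/6 in the sample labels but FVB in the extraction protocol, and the study's own text gives FVB/N mice for this experiment. Sex and age of each animal are not given, and the series' design text speaks of c-MYC/MCL1 tumours under drug treatment, which no sample label names. Nothing in the labels states that libraries of a group came from separate mice, so p-values measure only the spread between these samples.

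Liver sinusoids are capillaries whose endothelial cells are perforated by pores and lack a continuous basement membrane. These cells clear waste molecules from blood through scavenger receptors and lectins, a role that the endothelium of other capillaries does not share, and the markers of that role are commonly lost when sinusoids turn into continuous capillaries. General endothelial markers, such as junction proteins and growth factor receptors, are found in vessels of most organs. In whole tissue, fewer cells of a type and less RNA per cell cannot be told apart.

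Values are FPKM, fragments per kilobase of transcript scaled to library size, taken back from the deposited log2 FPKM. They contain a small prior count, so a gene with no reads is above 0, and whole reads recovered from the values are given for members with few reads and for some other low genes. Between 13123719 and 20547746 reads in listed genes lay behind each library. The authors' scaling factor, which divides the reads, was 0.649 to 0.684 in NL, 1.26 to 1.29 in c-MYC and 1.45 to 1.5 in c-MYC/FOXO1AAA, and other scalings are compared below. Foxo1, the targeted gene, was at 83.1 ± 12.8 FPKM (SD, n = 3) in c-MYC/FOXO1AAA, 5.63 ± 0.721 (n = 3) in c-MYC and 7.14 ± 0.532 (n = 4) in NL, as the labels have it. Hepatocyte genes were present in NL (Alb 43200 ± 2530 FPKM, SD, n = 4), and endothelial genes were present in every library, with at least 106 reads of Pecam1 and 149 of Cdh5.

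**Figure D1:**
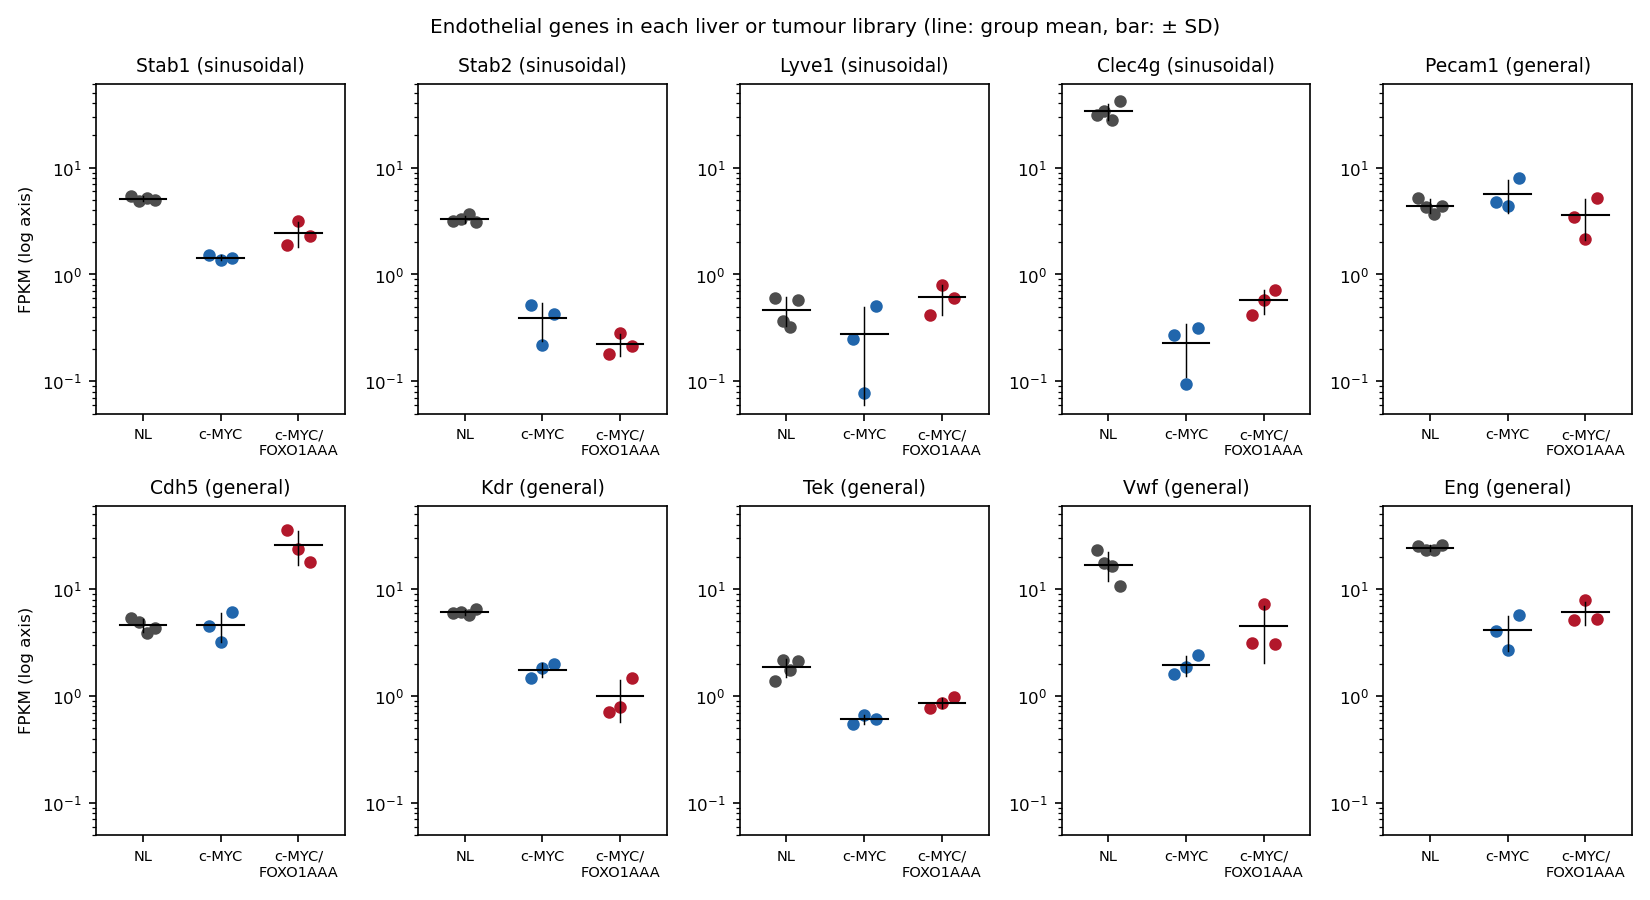
FPKM of each of the 10 genes (vertical log axis) in every library of NL (grey, n = 4), c-MYC (blue, n = 3) and c-MYC/FOXO1AAA (red, n = 3). Horizontal lines are group means and vertical bars ± SD. Clec4g lies at 28.0 to 41.8 in NL and under 1 in all 6 tumours, whereas Cdh5 lies at 18.1 to 35.8 in c-MYC/FOXO1AAA and at 3.21 to 6.08 in the other 7 libraries.

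At the deposited scaling, the c-MYC tumours held less RNA of most of these markers than normal liver, with the junction genes Pecam1 and Cdh5 and the low Lyve1, whose libraries overlapped, as the exceptions. Of the 9 genes tested (Lyve1 was under the filter in all libraries), 7 fell against NL and 0 rose, and with equal FPKM totals, described at the end, 4 were lower and 1 higher. The 7 were all 3 tested sinusoidal genes, Clec4g, Stab2 and Stab1, and 4 of 6 general genes, Vwf, Eng, Kdr and Tek. Over all 14017 genes tested, 23.6% were called lower and 24.5% higher by limma's treat test against a 1.5-fold change (Benjamini-Hochberg adjusted p under 0.05). Libraries of c-MYC and NL did not overlap for the same 7 genes, which is true of 73.9% of all genes. The median log2 change was -3.18 over the 3 tested sinusoidal genes (-2.51 over all 4, with Lyve1 from a fit without the filter) and -1.69 over the 6 general genes, against 0.08 over all genes. Clec4g, Stab2 and Tek passed the filter only through NL, so they could be tested only because they were high there. Vwf passed in the tumours on an FPKM divided by too short a length, as described below. Set to its longest coding transcript, it was at 0.745 to 1.61 in NL. Its highest library was then 0.167 in c-MYC and 0.502 in c-MYC/FOXO1AAA, so no tumour would reach the FPKM of 1 that the filter asks.

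Between the tumour groups, Cdh5 rose in c-MYC/FOXO1AAA. It was the only gene of the 9 called in that comparison, 1 of 9 higher and 0 lower, where 15.9% of all genes were called higher and 12.7% lower. Groups did not overlap for 6 of the 9 tested genes, compared with 63.4% of all genes. Median log2 differences were 0.73 over the 3 tested sinusoidal genes (1.10 over all 4) and 0.55 over the 6 general genes, and 0.03 over all genes. Against NL, 6 of the 9 tested genes were lower in c-MYC/FOXO1AAA (Clec4g, Stab2, Stab1, Kdr, Eng and Vwf) and Cdh5 was higher, where 26.6% of all genes were called lower and 31.2% higher. Here 8 of the 9 did not overlap, and 80.1% of all genes did not. The medians were -3.89 for the tested sinusoidal genes (-2.50 over all 4), -1.54 for the general and 0.21 for all genes. These contrasts share their NL or c-MYC libraries, so each is given with its own values only.

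**Figure D2:**
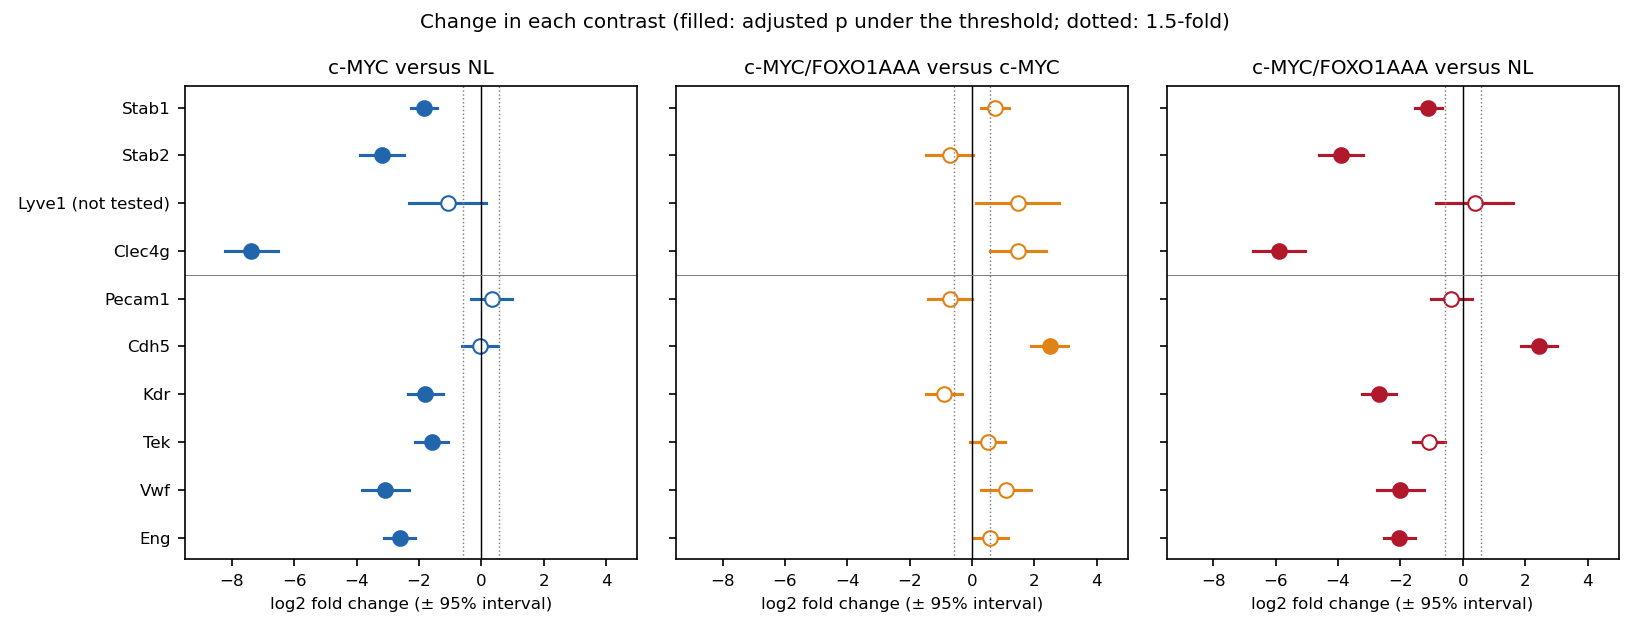
Log2 fold change (horizontal axis, points with 95% intervals) of each gene in the 3 contrasts, with the sinusoidal genes above the grey line. Filled points passed the test, dotted lines mark a 1.5-fold change, and Lyve1 is drawn from a fit without the filter. For c-MYC versus NL 7 filled points are on the left, and Cdh5 is the sole filled point for c-MYC/FOXO1AAA versus c-MYC.

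Upstream sequence was examined because the 3 tested sinusoidal genes were called lower versus NL in both tumour groups at the deposited scaling. The RefSeq promoter table (GRCm38.p6) matched 6 of the 10 genes, namely Stab1, Stab2, Clec4g, Kdr, Tek and Eng, and Lyve1, Pecam1, Cdh5 and Vwf had no entry. The 250 bases before the start site were searched on both strands for an E-box (CACGTG, the motif of MYC), a forkhead motif (GTAAACA, the motif of FOXO factors), a GATA motif (AGATAA) and an ETS motif (CGGAAG), none of which contains another. Among 32851 promoters of that length, 6.02% held the E-box, 3.17% the forkhead, 9.99% the GATA and 13.6% the ETS motif. Among the 6 genes the only match was an ETS motif in Stab1, on the minus strand of the printed sequence and starting at -58 from the start site. The absence of a match says only that these letters are not in this window. GC content ran from 51.2% in Tek to 62.4% in Eng, against a median of 52.4% over all promoters. CpG pairs numbered 2 in Tek, 3 in Stab2, 4 in Clec4g and Eng, 5 in Stab1 and 16 in Kdr, against a median of 6. The bases before the start are given 5′ to 3′ for the 3 sinusoidal genes that fell and for Eng, the most abundant general gene in NL per length of its coding transcript. Capitals mark the ETS match. The windows are chr8:3720652-3720901 (minus strand, 250 bases) for Clec4g, chr10:87008026-87008192 (minus strand, 167 bases) for Stab2, chr14:31168642-31168891 (minus strand, 250 bases) for Stab1 and chr2:32646345-32646594 (plus strand, 250 bases) for Eng, and that of Stab2 is shorter because GENCODE places its start further upstream.
Clec4g: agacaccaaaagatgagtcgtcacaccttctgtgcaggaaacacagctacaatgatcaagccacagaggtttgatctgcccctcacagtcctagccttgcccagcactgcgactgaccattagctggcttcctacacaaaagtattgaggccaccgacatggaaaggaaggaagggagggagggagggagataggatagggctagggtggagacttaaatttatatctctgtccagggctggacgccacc
Stab2: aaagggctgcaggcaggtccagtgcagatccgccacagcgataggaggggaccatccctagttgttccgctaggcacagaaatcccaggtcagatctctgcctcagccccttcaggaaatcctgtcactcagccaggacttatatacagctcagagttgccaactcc
Stab1: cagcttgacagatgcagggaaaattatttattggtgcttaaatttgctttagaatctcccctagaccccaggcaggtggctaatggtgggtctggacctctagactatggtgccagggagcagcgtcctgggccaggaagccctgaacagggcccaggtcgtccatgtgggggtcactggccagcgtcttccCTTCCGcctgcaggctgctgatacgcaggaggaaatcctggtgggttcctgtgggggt
Eng: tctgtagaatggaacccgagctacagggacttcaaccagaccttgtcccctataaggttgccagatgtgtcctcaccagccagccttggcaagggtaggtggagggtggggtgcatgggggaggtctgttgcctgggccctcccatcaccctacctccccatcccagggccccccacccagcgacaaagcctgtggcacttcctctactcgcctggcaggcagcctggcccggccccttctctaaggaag

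Clec4g encodes a C-type lectin of sinusoidal endothelial cells (GRCm38 chr8:3707064-3720651, minus strand). Its FPKM was 30.9, 33.8, 28.0 and 41.8 in the NL libraries, 0.271, 0.0953 and 0.314 in c-MYC, and 0.422, 0.581 and 0.711 in c-MYC/FOXO1AAA. The NL values rest on 339 to 465 reads per library. The c-MYC values rest on 4, 0 and 5 reads, the 0 allowing up to 3, and those of c-MYC/FOXO1AAA on 10, 18 and 15. All tumours were far under all normal livers, and the tumour groups did not overlap, with c-MYC the lower. Pooled over each group, that was 27.8 RPM in NL (exact 95% Poisson interval 26.5 to 29.2), 0.206 in c-MYC (0.0944 to 0.392) and 0.853 in c-MYC/FOXO1AAA (0.617 to 1.15), intervals that cover counting error only. Its log2 fold change was -7.37 ± 0.38 (SE) in c-MYC versus NL (adjusted p = 7.21e-08, limma) and -5.90 ± 0.38 in c-MYC/FOXO1AAA versus NL (adjusted p = 2.67e-07, limma). The tumour groups differed by 1.47 on the log2 scale (95% interval 0.57 to 2.38, adjusted p = 0.0862, limma). Without c-MYC 3 it was 1.80 and passed (adjusted p = 0.0312).

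Stab2 and Stab1 encode stabilins, large scavenger receptors of sinusoidal endothelium, Stab2 the main one for the uptake of hyaluronan. Stab2 (chr10:86841198-87008025, minus strand) was at 3.19, 3.30, 3.66 and 3.07 FPKM in NL, at 0.518, 0.221 and 0.425 in c-MYC, and at 0.182, 0.283 and 0.213 in c-MYC/FOXO1AAA. Neither tumour group reached the NL range, and both overlapped each other. The log2 fold change was -3.18 ± 0.32 in c-MYC (adjusted p = 2.35e-05, limma) and -3.89 ± 0.32 in c-MYC/FOXO1AAA (adjusted p = 2.45e-06, limma), both versus NL. The difference between the tumour groups was -0.72 on the log2 scale (95% interval -1.47 to 0.04, adjusted p = 0.776, limma).

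Stab1 (chr14:31139013-31168641, minus strand), which is also made by some macrophages, was at 5.48, 4.83, 5.23 and 4.99 FPKM in NL, at 1.52, 1.36 and 1.43 in c-MYC, and at 1.87, 3.15 and 2.31 in c-MYC/FOXO1AAA. The 3 groups did not overlap, and c-MYC was the lowest. On the log2 scale Stab1 fell by 1.84 ± 0.19 in c-MYC versus NL (adjusted p = 0.000103, limma) and by 1.10 ± 0.19 in c-MYC/FOXO1AAA versus NL (adjusted p = 0.0185, limma), and the second call was lost without c-MYC/FOXO1AAA 1 (adjusted p = 0.0894). The tumour groups differed by 0.73 (95% interval 0.29 to 1.18, adjusted p = 0.560, limma). The paralogues therefore stood in a different ratio in each group. For each Stab1 read there were 0.598 to 0.720 Stab2 reads in NL, 0.158 to 0.344 in c-MYC and 0.0881 to 0.0932 in c-MYC/FOXO1AAA, a ratio that was formed after the values were seen and was not tested.

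Lyve1, a hyaluronan receptor of sinusoidal and lymphatic endothelium (chr7:110850607-110863239, minus strand), was low throughout. It had 18, 9, 8 and 14 reads in NL, 11, 2 and 25 in c-MYC, and 27, 66 and 32 in c-MYC/FOXO1AAA, or 0.324 to 0.604, 0.0776 to 0.511 and 0.420 to 0.805 FPKM. The groups overlapped in every contrast. The c-MYC mean of 0.279 FPKM was 0.163 without c-MYC 3. Pooled without the scaling factor, Lyve1 was at 0.841 RPM in NL (exact 95% Poisson interval 0.622 to 1.11) and 0.872 in c-MYC (0.617 to 1.2). In c-MYC/FOXO1AAA it was at 2.48 RPM (2.06 to 2.95). In a fit without the filter the log2 changes were -1.08 for c-MYC versus NL (95% interval -2.32 to 0.16, adjusted p = 0.356, limma) and 0.38 for c-MYC/FOXO1AAA versus NL (-0.86 to 1.62, adjusted p = 0.882). The tumour groups differed by 1.46 (0.14 to 2.78, adjusted p = 0.242, limma).

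Pecam1 and Cdh5 encode adhesion proteins of endothelial cell junctions, PECAM-1 (CD31) and VE-cadherin. Pecam1 (chr11:106654217-106750628, minus strand) was at 5.25, 4.27, 3.65 and 4.38 FPKM in NL, at 4.77, 4.40 and 7.94 in c-MYC, and at 3.48, 2.14 and 5.15 in c-MYC/FOXO1AAA. The groups overlapped in all 3 contrasts. Its log2 differences were 0.34 (95% interval -0.32 to 0.99) for c-MYC versus NL, -0.71 (-1.41 to -0.00) between the tumour groups and -0.37 (-1.02 to 0.29) for c-MYC/FOXO1AAA versus NL, and it passed the test in none of them (adjusted p = 1.0, 0.776 and 0.962, limma).

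Cdh5 (chr8:104101625-104144511, plus strand) was at 5.33, 4.92, 3.85 and 4.32 FPKM in NL and at 4.53, 3.21 and 6.08 in c-MYC, but at 35.8, 24.0 and 18.1 in c-MYC/FOXO1AAA. The last group, with 1417 to 3518 reads per library, was above all other libraries, and NL and c-MYC overlapped. Cdh5 rose 5.6-fold over c-MYC (log2 2.49 ± 0.27, adjusted p = 0.000143, limma) and 5.46-fold over NL (log2 2.45 ± 0.26, adjusted p = 3.81e-05, limma). The c-MYC versus NL difference was -0.04 (95% interval -0.61 to 0.53, adjusted p = 1.0, limma). Reads of Cdh5 for each read of Pecam1, a ratio within a library that no scaling of the library can alter, numbered 1.32 to 1.53 in NL, 0.968 to 1.26 in c-MYC and 13.8, 15.1 and 4.71 in c-MYC/FOXO1AAA. That ratio too was formed after the values were seen and was not tested.

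Kdr and Tek encode the receptor tyrosine kinases VEGFR2 and TIE2, which bind VEGF and angiopoietins. Kdr (chr5:75932827-75978458, minus strand) was at 6.0, 6.14, 5.67 and 6.49 FPKM in NL, at 1.47, 1.81 and 2.0 in c-MYC, and at 0.712, 0.794 and 1.47 in c-MYC/FOXO1AAA. All tumours were under all normal livers, and the tumour groups met at 1.47, where c-MYC 1 was higher than c-MYC/FOXO1AAA 3 beyond the digits shown. The fall was 1.79 ± 0.25 in c-MYC (log2 -1.79, adjusted p = 0.000929, limma) and 2.69 ± 0.25 in c-MYC/FOXO1AAA (log2 -2.69, adjusted p = 1.16e-05, limma). The tumour groups differed by -0.90 (95% interval -1.49 to -0.31, adjusted p = 0.348, limma), and without c-MYC/FOXO1AAA 3 by -1.22, which passed (adjusted p = 0.0270). In c-MYC/FOXO1AAA, where Cdh5 was high, there were 0.0287, 0.0480 and 0.119 Kdr reads for each Cdh5 read, against 1.67 to 2.23 in NL and 0.479 to 0.837 in c-MYC. This ratio was also formed after the values were seen and was not tested. Vegfa, the main ligand of VEGFR2, fell as well, from 161 ± 18.7 FPKM (SD, n = 4) in NL to 22.4 ± 2.41 (n = 3) in c-MYC (log2 -2.84, adjusted p = 7.32e-08) and 33.0 ± 4.68 (n = 3) in c-MYC/FOXO1AAA (log2 -2.29, adjusted p = 3.64e-07), and Nrp1, its co-receptor, fell by 4.37 and 1.83 on the log2 scale in the same contrasts (adjusted p = 9.46e-09 and 2.29e-05, all limma), the second of which was named after its value was seen. Between the tumour groups Nrp1 rose (log2 2.54, adjusted p = 4.08e-06, limma), from 1.47 ± 0.283 FPKM (SD, n = 3) in c-MYC to 8.43 ± 0.107 (n = 3) in c-MYC/FOXO1AAA. Versus NL, other genes of the pathway went the other way. Nrp2, a related co-receptor, was at 2.82 ± 0.072 FPKM (SD, n = 4) in NL and rose in c-MYC/FOXO1AAA, where it reached 14.6 ± 2.36 (n = 3, log2 2.36, adjusted p = 0.000318, limma), and in c-MYC it was at 5.93 ± 3.29 (n = 3, log2 0.90, adjusted p = 0.299, limma). Vegfb, a ligand of VEGFR1, rose in c-MYC/FOXO1AAA versus NL as well (log2 0.99, adjusted p = 0.00623, limma).

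Tek (chr4:94739289-94874976, plus strand) was at 1.39, 2.16, 1.77 and 2.11 FPKM in NL, at 0.550, 0.664 and 0.615 in c-MYC, and at 0.777, 0.854 and 0.969 in c-MYC/FOXO1AAA. The 3 groups did not overlap. On the log2 scale Tek fell by 1.59 ± 0.24 in c-MYC versus NL (adjusted p = 0.00224, limma). In c-MYC/FOXO1AAA versus NL its log2 difference of -1.09 ± 0.24 missed the threshold (adjusted p = 0.0518, limma) and passed without NL 1 (adjusted p = 0.0223). The tumour groups differed by 0.51 (95% interval -0.06 to 1.07, adjusted p = 1.0, limma). Angpt2, a TIE2 ligand that activated endothelium releases, was at 0.353 ± 0.144 FPKM in NL (SD, n = 4), 0.781 ± 0.645 in c-MYC (n = 3) and 108 ± 33.5 in c-MYC/FOXO1AAA (n = 3), and the c-MYC mean was 0.421 without c-MYC 3. It rose by 7.43 ± 0.61 on the log2 scale between the tumour groups (adjusted p = 6.33e-06, limma). Tie1, the other receptor of the family, fell in c-MYC (log2 -1.39, adjusted p = 0.0191) and c-MYC/FOXO1AAA (log2 -2.18, adjusted p = 0.000244), both versus NL by limma. Ptprb, the phosphatase that acts on TIE2, fell by 2.34 and 3.18 in those contrasts (adjusted p = 5.74e-05 and 1.92e-06, limma). Ptprb passed the filter only through NL, and Angpt2 only through the tumours.

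Eng, the co-receptor endoglin for BMP9 and TGF-β (chr2:32646595-32682669, plus strand), was at 25.5, 23.2, 23.1 and 26.0 FPKM in NL, at 4.05, 2.70 and 5.71 in c-MYC, and at 5.13, 7.85 and 5.31 in c-MYC/FOXO1AAA. Every tumour was under every normal liver, and the tumour groups overlapped. Versus NL, Eng fell by 2.62 ± 0.23 (adjusted p = 1.27e-05, limma) in c-MYC and by 2.03 ± 0.23 (adjusted p = 0.000119, limma) in c-MYC/FOXO1AAA on the log2 scale. The tumour groups differed by 0.59 (95% interval 0.04 to 1.14, adjusted p = 0.980, limma). Gdf2, which encodes BMP9 and is made in the liver, fell as well, with log2 changes versus NL of -5.59 for c-MYC and -3.91 for c-MYC/FOXO1AAA (adjusted p = 4.18e-06 and 5.88e-05, limma), from 5.48 ± 1.03 FPKM in NL (SD, n = 4) to 0.131 ± 0.0837 (n = 3) in c-MYC and 0.404 ± 0.248 (n = 3) in c-MYC/FOXO1AAA. These tumour means were 0.0850 without c-MYC 3 and 0.261 without c-MYC/FOXO1AAA 2. Gdf2 passed the filter only through NL, and its values rest on 136 to 186 reads in NL, 1 to 10 in c-MYC and 14 to 58 in c-MYC/FOXO1AAA.

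Vwf encodes von Willebrand factor, a clotting protein stored by endothelial cells and platelets (chr6:125546774-125686679, plus strand). Its FPKM was 23.3, 17.6, 16.3 and 10.8 in NL, 1.62, 1.85 and 2.43 in c-MYC, and 3.12, 7.27 and 3.04 in c-MYC/FOXO1AAA. These values rest on 58 to 156, 16 to 25 and 34 to 129 reads, and the groups did not overlap. Vwf fell by 3.08 ± 0.34 in c-MYC (adjusted p = 5.16e-05, limma) and by 2.0 ± 0.34 in c-MYC/FOXO1AAA (adjusted p = 0.00194, limma) on the log2 scale versus NL. The difference between the tumour groups was 1.08 (95% interval 0.28 to 1.88, adjusted p = 0.269, limma). Itga2b, the platelet integrin, fell versus NL in both tumour groups as well (log2 -3.25 and -1.22, adjusted p = 5.51e-06 and 0.0355, limma), and of 5 platelet and megakaryocyte markers only Itga2b and Pf4 passed the filter, both of which rose between the tumour groups (log2 2.03 and 1.65). Pf4, a platelet chemokine, was not called versus NL in c-MYC (log2 -0.78, adjusted p = 0.484) or c-MYC/FOXO1AAA (log2 0.87, adjusted p = 0.325, limma), and with equal FPKM totals the second was called higher (log2 1.97) while Itga2b was no longer lower there (log2 -0.12). Itga2b passed the filter only through NL, and the part of platelets in the Vwf values was not tested.

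Levels of different genes can be compared only per length, and the lengths the authors divided by differed in kind. The length recovered for Vwf was 610 bp, that of a processed transcript (Vwf-204), where its longest coding transcript has 8834 bp, so its FPKM is too high beside the others by a factor of 14.48. The lengths of the other 9 genes were those of coding transcripts, and the longest coding transcript was at most 1.16 times longer. With FPKM set to the longest coding transcript, NL held Clec4g (29.0 ± 5.12, SD, n = 4) and Eng (24.4 ± 1.5) at the top with overlapping libraries. Kdr (6.08) came next, clear of both neighbours. Stab1, Cdh5, Pecam1 and Stab2 followed between 5.13 and 3.31, each overlapping the next, then Tek (1.67) and Vwf (1.17), which overlapped, and Lyve1 (0.470) last. In c-MYC the top genes were Pecam1 (4.98 ± 1.70, SD, n = 3), Cdh5 (4.61 ± 1.44) and Eng (4.15 ± 1.51), whose libraries overlapped, and Clec4g had moved to rank 9 with 0.196. In c-MYC/FOXO1AAA Cdh5 stood alone at the top (26.0 ± 8.99, n = 3) before Eng (6.10 ± 1.52), and Stab2 was last with 0.226.

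The sinusoidal genes were set against the general genes within each library, by the mean log2 FPKM of the 4 minus that of the 6, a quantity that a rescaling of the library leaves as it is. It was -0.76, -0.89, -0.76 and -0.56 in NL, -2.20, -3.27 and -2.45 in c-MYC, and -2.70, -2.14 and -2.40 in c-MYC/FOXO1AAA. All tumours were lower than all normal livers and the tumour groups overlapped. The group means differed by -1.90 for c-MYC versus NL, -1.67 for c-MYC/FOXO1AAA versus NL and 0.23 between the tumour groups, with a pooled SD of 0.346 within groups. No test was applied, as the genes were chosen. The last value turned to -0.09 without c-MYC 2 and to -0.20 with a pseudocount of 1, so the sign of the difference between the tumour groups is not settled. With a pseudocount of 1 the first was -0.86 and the second -1.06. Without Clec4g, a choice made after the values were seen, the 3 differences shrank to -0.57, -0.59 and -0.02. The libraries then ran from -1.94 to -1.64 in NL, -2.88 to -1.93 in c-MYC and -2.62 to -1.99 in c-MYC/FOXO1AAA, so that c-MYC overlapped NL and most of the distance from NL rested on Clec4g. Without Cdh5 in the general mean, the libraries ran from -0.99 to -0.67 in NL, -3.15 to -1.99 in c-MYC and -2.0 to -1.59 in c-MYC/FOXO1AAA.

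**Figure D3:**
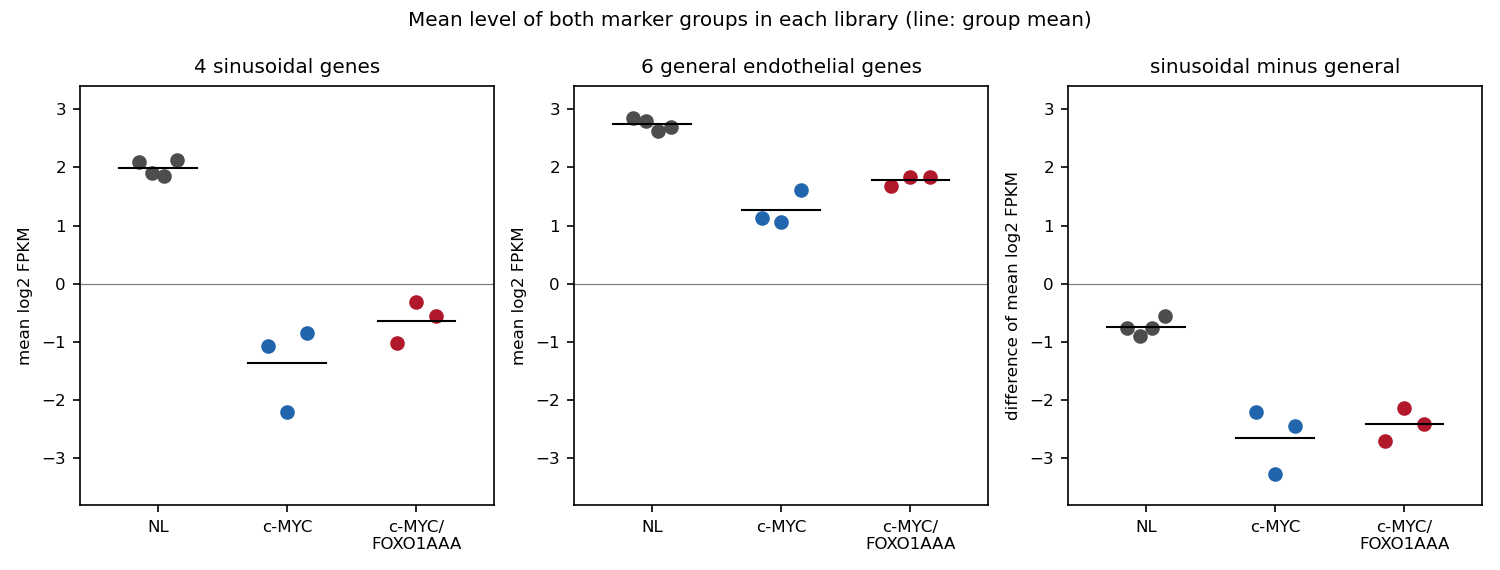
Mean log2 FPKM of the 4 sinusoidal genes (left), of the 6 general endothelial genes (middle) and their difference (right) in each library; lines are group means. The difference lies between -0.89 and -0.56 in NL and between -3.27 and -2.14 in the 6 tumours.

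The profiles of the members varied among themselves. Likeness was measured as the root mean square difference, in log2 units over the 10 libraries, between profiles centred on their own means. The most alike members were Stab1 and Tek (0.30), a sinusoidal and a general gene, followed by Vwf and Eng (0.43) and Stab1 and Eng (0.48), whereas Stab1 and Stab2 differed by 1.19 and Pecam1 and Cdh5 by 1.44. Among all tested genes, those nearest to the sinusoidal mean were Aqp1 (0.240), Smpdl3a, Mief2, Ormdl3 and Podn (0.338). Aqp1, a water channel, was at 28.1 ± 1.54 FPKM in NL (SD, n = 4), 3.8 ± 2.36 in c-MYC (n = 3) and 5.46 ± 0.452 in c-MYC/FOXO1AAA (n = 3). The genes nearest to the general mean were Bri3 (0.099), Kctd2, Atg101, Jade2 and Stk16 (0.144). The nearest gene to Cdh5 was Plxnd1 (0.189), an endothelial semaphorin receptor, at 3.58 ± 0.326 FPKM in NL (SD, n = 4), 3.06 ± 0.469 in c-MYC (n = 3) and 18.1 ± 4.09 in c-MYC/FOXO1AAA (n = 3). The nearest genes to the others were Sdf4 (Stab1), Atp8b5 (Stab2), Cyr61 (Lyve1), Notum (Clec4g), Dnhd1 (Pecam1), Vamp8 (Kdr), Hook3 (Tek), 2810414N06Rik (Vwf) and Fuca1 (Eng). With 3 groups of libraries, many unrelated genes can have similar profiles.

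The other sinusoidal genes, a list of 10, were mostly lower in tumours as well. Of the 9 tested, 7 fell and 0 rose in c-MYC versus NL (median log2 -4.05), and 9 fell in c-MYC/FOXO1AAA versus NL (median -2.95). Of all genes, 23.6% and 26.6% were called lower in these contrasts. Of the 9, 6 passed the filter only through NL, Oit3, Dnase1l3, Fcgr2b, Gpr182, Flt4 and Bmp2, so they could be tested only because they were high there. The largest falls in c-MYC were those of the Fc receptor Fcgr2b (log2 -4.76, adjusted p = 6.28e-07), Oit3 (log2 -4.41, adjusted p = 0.000186) and the nuclease Dnase1l3 (log2 -4.24, adjusted p = 1.2e-06, limma). The c-MYC mean of Oit3 was 0.344 FPKM, on 1 to 28 reads per library, and 0.214 without c-MYC 3. Between the tumour groups 3 rose, namely Ehd3 (log2 2.95, adjusted p = 2.57e-06), Bmp2 (log2 2.29, adjusted p = 0.000582) and Fcgr2b (log2 1.66, adjusted p = 0.0183), and 2 fell, Gata4 (log2 -2.72, adjusted p = 0.00208) and the mannose receptor Mrc1 (log2 -2.23, adjusted p = 0.000678, limma). There, 15.9% of all genes were called higher and 12.7% lower. GATA4 is a transcription factor known for maintaining sinusoidal identity, and it is also made by other liver cells. Gata4 was at 6.36 ± 0.836 FPKM in NL (SD, n = 4), 5.20 ± 2.89 in c-MYC (n = 3) and 0.719 ± 0.274 in c-MYC/FOXO1AAA (n = 3). Mrc1 and Fcgr2b were named here after their values were seen in the second of these contrasts.

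**Figure D4:**
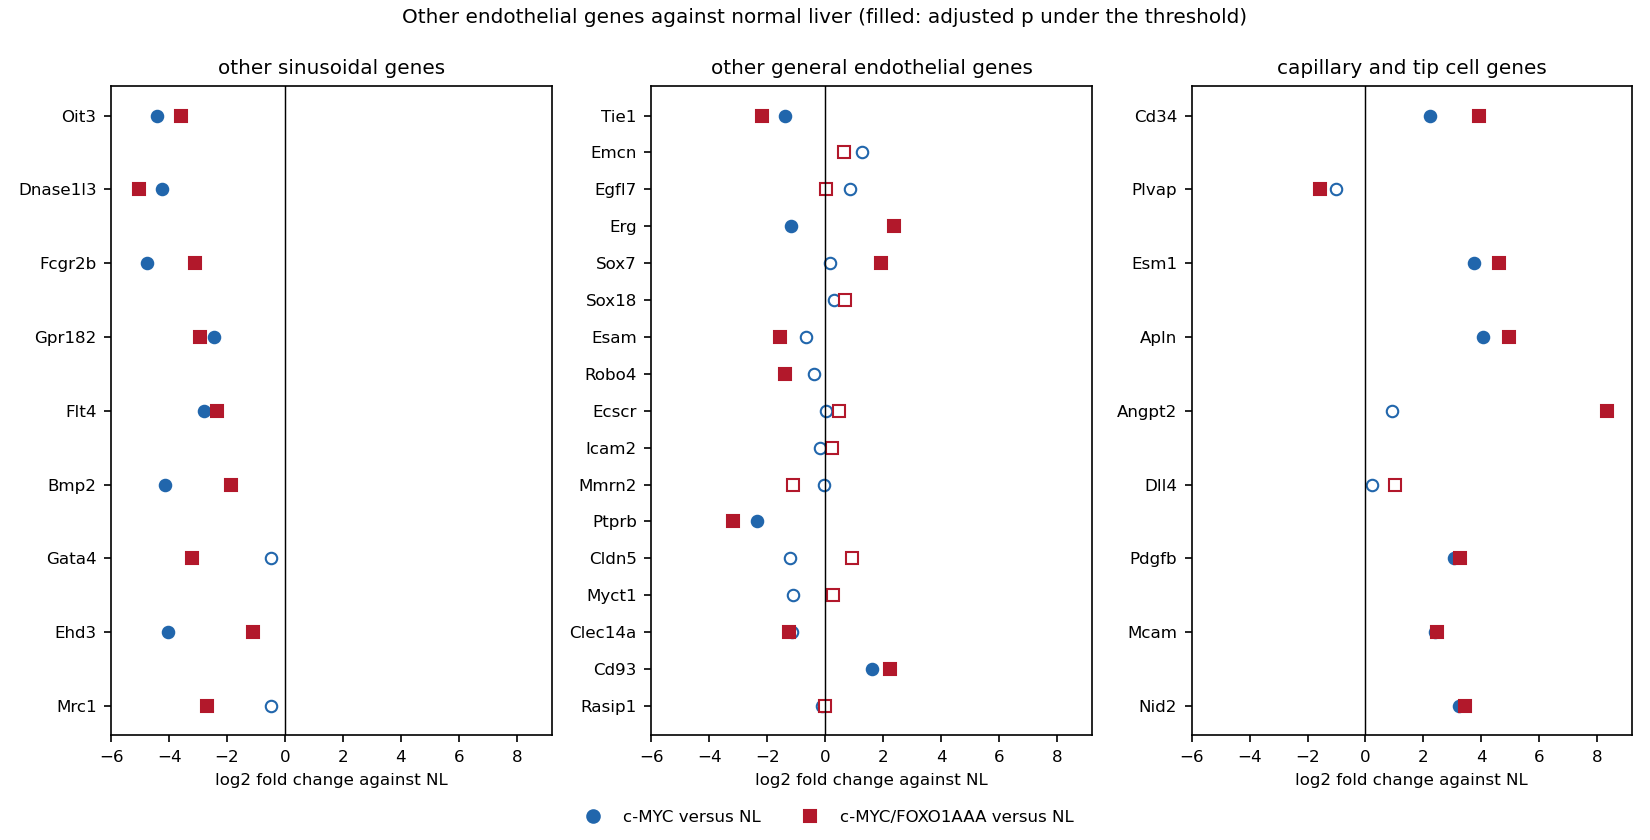
Log2 fold change against NL (horizontal axis) of the tested genes of 3 further lists in c-MYC (blue circles) and c-MYC/FOXO1AAA (red squares), filled where the test was passed. The 9 other sinusoidal genes lie left of 0 in both tumour groups, general endothelial genes lie on both sides, and most capillary and tip cell genes lie on the right, with Angpt2 at 8.34 in c-MYC/FOXO1AAA.

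The other general endothelial genes, a list of 22 with 17 tested, were divided at the deposited scaling. Of the 17, 3 passed the filter only through NL, among them Ptprb, and 4 only through the tumours, among them Cd93 and Sox7. In c-MYC versus NL 3 fell, Ptprb, Tie1 and Erg, 1 rose, Cd93, and 13 did not pass, with a median of -0.18. Of all genes, 23.6% were called lower and 24.5% higher there. In c-MYC/FOXO1AAA against c-MYC 3 of the 17 rose and 0 fell, where 15.9% of all genes were called higher and 12.7% lower. The 3 were Erg (log2 3.55 ± 0.23, adjusted p = 1.82e-06), an ETS factor of endothelial cells, Cldn5 (log2 2.16 ± 0.49, adjusted p = 0.0192), a tight junction protein, and Sox7 (log2 1.77 ± 0.41, adjusted p = 0.0277, limma), an endothelial transcription factor. Erg was at 3.93 ± 0.354 FPKM in NL (SD, n = 4), 1.78 ± 0.605 in c-MYC (n = 3) and 20.3 ± 4.10 in c-MYC/FOXO1AAA (n = 3), with no overlap between groups. In c-MYC/FOXO1AAA versus NL 5 fell and 3 rose, where 26.6% of all genes were called lower and 31.2% higher.

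Genes of continuous capillaries and of tip cells, the leading cells of vessel sprouts, were mostly higher in the tumours. Of 9 tested from a list of 10, 6 rose and 0 fell in c-MYC versus NL (median log2 2.40), and 7 rose and 1 fell in c-MYC/FOXO1AAA versus NL (median 3.44), where 24.5% and 31.2% of all genes were called higher. Of the 9, 7 passed the filter only through the tumours, so they could be tested only because they were high there. Every gene called higher versus NL was among these 7. The gene that fell was Plvap (log2 -1.58, adjusted p = 0.00218, limma), which was not called in c-MYC (log2 -1.02). Dll4 was not called in either contrast (log2 0.21 and 1.01). Plvap and Dll4 were named after their values were seen. On the log2 scale Apln rose by 4.06 ± 0.58 in c-MYC (adjusted p = 0.000215), Esm1 by 3.75 ± 0.56 (adjusted p = 0.000367) and the basement membrane gene Nid2 by 3.23 ± 0.44 (adjusted p = 0.000205, limma). In the 4 NL libraries Apln had 2 reads in all, so its fitted change depends on the prior count, against 19 to 120 reads per c-MYC library, and Esm1 had 0 to 5 reads in NL and 71 to 147 in c-MYC. The c-MYC mean of Apln was 1.04 FPKM, and 0.509 without c-MYC 3, and that of Nid2 was 5.65, and 3.27 without c-MYC 2. Between the tumour groups only Angpt2 was called. Of 6 tested arterial and venous genes, 3 rose between the tumour groups and 0 fell, with Hey1 (log2 2.97, adjusted p = 0.000472), Gja4 (log2 2.23, adjusted p = 0.000243) and Nr2f2 (log2 1.58) named by the rule. In that contrast 15.9% of all genes were called higher. Versus NL, 3 of the 6 fell and 2 rose in c-MYC, and 1 fell and 2 rose in c-MYC/FOXO1AAA. Gja4 and Nr2f2 fell in c-MYC (log2 -1.36 and -1.06) and were not called in c-MYC/FOXO1AAA versus NL (log2 0.88 and 0.52, adjusted p = 0.197 and 0.9, limma). Of 2 tested lymphatic genes, Ccl21a fell in both tumour groups versus NL (log2 -2.77 and -2.14), on 1 to 22 reads in NL, 0 to 1 in c-MYC and 2 to 5 in c-MYC/FOXO1AAA, and passed the filter only through NL. The other, Prox1, which hepatocytes also make and which was named after its values were seen, was not called (log2 0.16 and 0.37, adjusted p = 1.0 for both, limma). Of 6 tested vascular ligands, 4 fell and 0 rose in c-MYC versus NL, where 23.6% of all genes were called lower. In c-MYC/FOXO1AAA versus NL 2 fell and 1 rose. Between the tumour groups 2 rose, Jag1 (log2 2.55) and Vegfc (log2 2.28), and 0 fell, where 15.9% of all genes were called higher. Jag1 and Vegfc were among those that fell in c-MYC (log2 -1.49 and -2.18), and neither was called in c-MYC/FOXO1AAA versus NL (log2 1.06 and 0.10). Hey1 and Jag1 passed the filter only through the tumours, and Vegfc only through NL. Of 9 tested vascular receptors, which here exclude the members, 3 fell and 1 rose in c-MYC versus NL.

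Genes of other cells moved with these contrasts. Of all genes, 23.6% were called lower and 24.5% higher in c-MYC versus NL, and 12.7% and 15.9% between the tumour groups. In c-MYC/FOXO1AAA versus NL the shares were 26.6% and 31.2%. The summed FPKM of 6 hepatocyte markers was 81200 to 91100 in NL, 3780 to 5560 in c-MYC and 875 to 1550 in c-MYC/FOXO1AAA. That of 5 red cell genes was 1120 to 2220, 131 to 234 and 215 to 532. That of 10 stellate cell and fibroblast markers was 96.2 to 121, 17.6 to 55.8 and 481 to 505. Dcn alone had means of 69.8, 4.59 and 236 FPKM in these groups. Of the 10, 5 fell and 1 rose in c-MYC versus NL, and 2 fell and 7 rose in c-MYC/FOXO1AAA versus NL. Those 2 were Lrat (log2 -3.93) and Rgs5 (log2 -2.65), the second named after its value was seen. Between the tumour groups 6 rose and 0 fell, among them Des (log2 6.18) and Dcn (log2 5.90). The summed FPKM of 11 macrophage markers was 295 to 527, 285 to 362 and 129 to 226. Of the 11 tested, 3 fell, 1 rose and 7 were not called in c-MYC versus NL (median log2 0.28). In c-MYC/FOXO1AAA versus NL 5 fell and 1 rose. The Kupffer cell lectin Clec4f was lower in both tumour groups (log2 -5.74 and -3.54 versus NL), whereas the general macrophage gene Cd68, named after its values were seen, was higher in both (log2 2.34 and 1.73, adjusted p = 4.27e-05 and 0.000653, limma). From c-MYC to c-MYC/FOXO1AAA, Clec4f rose (log2 2.20, adjusted p = 0.0237), and Timd4 (log2 -3.38, adjusted p = 3.94e-05) and Cd5l (log2 -2.64, adjusted p = 0.000598, limma) fell. Of 5 tested leukocyte markers 0 were called in c-MYC versus NL, and Cd79a rose between the tumour groups (log2 5.42). Cd79a passed the filter only through the tumours. Of 4 tested biliary markers, 1 fell and 2 rose in c-MYC versus NL. The part of these cells in the endothelial values was not tested.

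The fall of the members in tumours depends on how libraries are scaled. When every library was set to the same FPKM total, the median log2 change of all genes moved from 0.08 to 1.05 for c-MYC versus NL, from 0.03 to 0.21 between the tumour groups and from 0.21 to 1.37 for c-MYC/FOXO1AAA versus NL, and 79.9%, 64.5% and 80.6% of called genes were higher, against 51.0%, 55.5% and 54.0% with the deposited scaling. Of the 14270 genes then tested, 12.8% were called lower and 50.9% higher for c-MYC versus NL, 10.5% and 19.1% between the tumour groups, and 14.2% and 59.3% for c-MYC/FOXO1AAA versus NL. The members called numbered 4 lower and 1 higher of 9, then 2 higher, then 3 lower and 1 higher. Under it Clec4g, Stab2, Vwf and Eng were still called lower in c-MYC, with log2 changes of -6.44, -2.25, -2.15 and -1.69, but Stab1 (-0.91, adjusted p = 0.0821), Kdr (-0.87, adjusted p = 0.191) and Tek (-0.66, adjusted p = 0.490) were not, and Pecam1 was called higher (1.27, adjusted p = 0.0295, limma). Between the tumour groups Clec4g joined Cdh5 as called higher (1.65, adjusted p = 0.0364, limma). In c-MYC/FOXO1AAA versus NL Clec4g (-4.80), Stab2 (-2.80) and Kdr (-1.59) were still called lower, whereas Stab1 (-0.01), Vwf (-0.90) and Eng (-0.93) were not. Cdh5 was called higher in c-MYC/FOXO1AAA under every alternative run, with log2 changes of 2.23 to 2.72 over c-MYC and 2.19 to 3.55 over NL. The other sinusoidal genes kept 7 falls in c-MYC and had 6 in c-MYC/FOXO1AAA, and of the capillary and tip cell genes 8 of 10 tested rose in c-MYC, where 50.9% of all genes did. Of the 18 other general endothelial genes then tested, 1 fell and 4 rose in c-MYC versus NL (median log2 0.78). In c-MYC/FOXO1AAA versus NL 1 of them fell and 10 rose (median 1.24), where 59.3% of all genes were called higher. Among the named genes of the vessel lists, calls were lost and gained too. Those of Tie1, Erg, Jag1, Gja4, Nr2f2 and Ccl21a were lost in c-MYC versus NL, where Efnb2 (log2 2.10), Angpt2 (log2 1.84), Nrp2 (log2 1.83) and Vegfb (log2 1.07) were gained as higher. The tumour groups gained Nrp2 (log2 1.63) and Vegfb (log2 1.02) and lost Notch1. Those of Tie1, Flt4, Nrp1, Bmp2, Ehd3 and Ccl21a were lost in c-MYC/FOXO1AAA versus NL, where Jag1 (log2 2.15), Cldn5 (log2 2.04), Gja4 (log2 1.97), Bmpr2 (log2 1.75), Nr2f2 (log2 1.62) and Notch1 (log2 1.08, from -0.01 with the deposited scaling) were gained as higher.

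**Figure D5:**
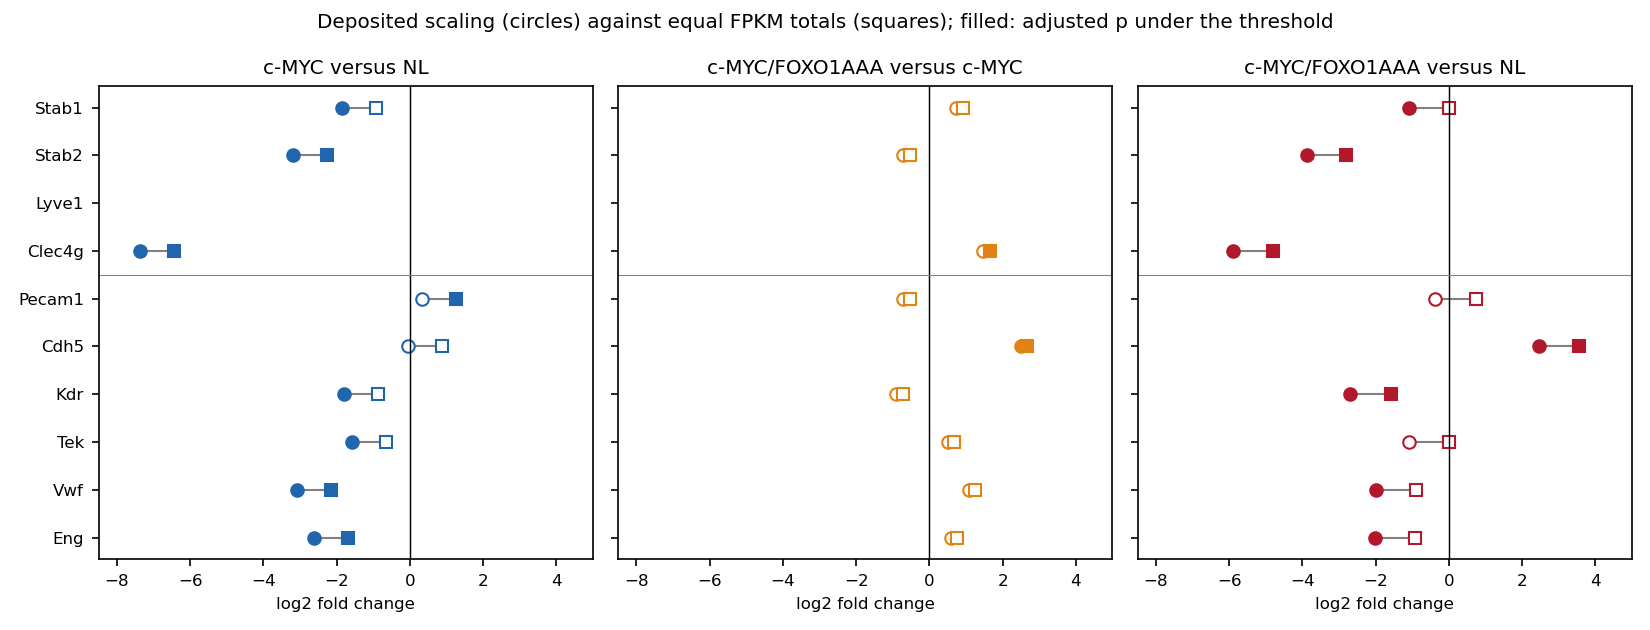
Log2 fold change of the tested members (horizontal axis) with the deposited scaling (circles) and with equal FPKM totals (squares), filled where the test was passed; Lyve1 was not tested. Values move right by about the same amount in a contrast, so that Stab1 in c-MYC/FOXO1AAA versus NL goes from -1.10 to -0.01, whereas Clec4g, Stab2 and Kdr stay filled on the left there and Cdh5 on the right.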

How the data were processed

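RNA-Seq of mouse liver was analysed in 10 libraries, grouped by sample title. The authors deposited log2 FPKM by gene symbol, made with edgeR from reads counted by gene, with a prior count of 2. Per the labels, libraries were made by polyA capture or rRNA removal, and the submitters' processing notes name GRCm38 and FastQC 0.11.7. The aligner, counter and filter are not given in the sources used here. The table had 17069 rows, of which 372 without a symbol were left out. Whole reads were recovered per gene from the transcript length that made its values whole in every library (a single length for 99.97% of 16697 genes), and 97.7% of the lengths equal a GENCODE M21 transcript.

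Since deposited values are no counts, limma 3.58.1 (R 4.3.3, statmod 1.5.0) replaced the count model of the study. The 14017 genes that reached an FPKM of 1 in 3 or more libraries were fitted over all 10 libraries with trend and robust estimation, and treat gave a 2-sided test against a fold change of 1.5, with Benjamini-Hochberg adjustment over all genes and a threshold of 0.05. The script was tested on simulated data. Log2 changes include the prior and understate those of low genes.

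The members and gene lists were chosen with earlier results of these data known, so the lists carry no test of their own. All members are named with their values. From each other list and contrast, at most the 3 genes with the largest called change and a mean FPKM of at least 1 in either group were named, and the nearest profiles by likeness. Positions are GRCm38 (GENCODE M21), and promoters are from RefSeq. The alternatives were pseudocounts of 0.1 and 1, other filters, scalings and thresholds, a fit over only the groups compared, the replicate number as a block and omission of each library. Omission of each member from the score was added after seeing the data.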

Additional observations from a re-analysis of the deposited data

How the results depend on the processing

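Beside the equal FPKM totals described above, which gave 5 members called in c-MYC versus NL (4 lower, 1 higher), 2 between the tumour groups and 4 in c-MYC/FOXO1AAA versus NL, the counts of 7, 1 and 7 moved with the following settings. A pseudocount of 1 gave 6 members in each contrast with NL, as Tek was lost in c-MYC (log2 -0.82, adjusted p = 0.0973) and Stab1 in c-MYC/FOXO1AAA (log2 -0.85, adjusted p = 0.0745, limma). A mean FPKM of at least 5 left 3 and 4 members called in the contrasts with NL, since fewer genes were tested. Between the tumour groups, quantile normalization gave 3 and no fold threshold 5. Leaving out each library gave 7 to 7, 1 to 2 and 6 to 8, the count between the tumour groups being 2 without c-MYC 3 or c-MYC/FOXO1AAA 3. The sinusoidal minus general difference with a pseudocount of 1 was -0.86 for c-MYC versus NL, -1.06 for c-MYC/FOXO1AAA versus NL and -0.20 between the tumour groups, where quantile normalization also gave -0.20. Without a library it ran from -2.12 to -1.59, from -1.81 to -1.53 and from -0.09 to 0.45. With each gene left out of the sinusoidal minus general difference, alternatives added after seeing the data, it ran from -2.66 to -0.57 for c-MYC versus NL, being -2.41 without Stab1, -2.66 without Lyve1, -1.54 without Pecam1 and -0.57 without Clec4g. For c-MYC/FOXO1AAA versus NL it was -2.18 without Stab1, -1.25 without Stab2, -2.68 without Lyve1, -0.99 without Cdh5, -2.02 without Kdr and -0.59 without Clec4g. Between the tumour groups it was 0.71 without Stab2, 0.62 without Cdh5, -0.01 without Lyve1, -0.02 without Clec4g or Pecam1 and -0.05 without Kdr, and the cause was not tested. Direction changed for 6 values of single members. With equal FPKM totals these were Cdh5 in c-MYC versus NL (0.89) and Pecam1 (0.73) and Tek (0.01) in c-MYC/FOXO1AAA versus NL. With quantile normalization it was Tek in c-MYC/FOXO1AAA versus c-MYC (-0.20). Cdh5 in c-MYC versus NL was 0.04 without NL 1 and 0.20 without c-MYC 2, in a range of -0.26 to 0.20 over the libraries left out. None of these 6 passed the test in either direction, and the cause was not tested. Of 486 values of single members under alternatives, 455 kept direction and call. Same-numbered libraries of different groups showed no shared deviation (r across genes -0.040 to 0.027), and differently numbered ones ran from -0.072 to 0.070. With so few libraries per group this cannot exclude that the samples were paired. The replicate block called 7, 1 and 7 members. Depth limits Clec4g and Lyve1 in tumours, where libraries held 0 to 66 reads.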
